A study of Mus musculus with 18 samples.

Results

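Integrins and laminins were examined as every gene in the deposited count tables whose symbol reads Itga or Itgb followed by 1 or 2 characters, or Lama, Lamb or Lamc followed by 1 digit. The rule took 39 of the 39179 genes in the tables. These were 18 integrin α names, 10 integrin β names and 11 laminin chains. The samples were MC38 cells, a mouse colon adenocarcinoma line from the C57BL6 strain, sequenced in 18 libraries with 3 in each of 6 groups. Cells labelled APC-deleted, for the tumour suppressor Apc, were sampled untreated, after 24 h and after 48 h of 1 µM doxycycline, and APC-intact cells were sampled at the same points. Doxycycline was given to switch on a hairpin against Tdo2, which encodes an enzyme of tryptophan breakdown. Only the titles of treated libraries carry the hairpin's name, while the protocol mentions hairpin cells with and without the drug, so it is not settled here whether the untreated cells had it. No treated group lacked the hairpin, so an effect of the hairpin and one of the drug cannot be told apart. The labels do not say how Apc was deleted or whether the line is a single clone, and a difference between lines cannot be told apart from one between clones.

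Integrins are receptors made of an α and a β chain that cross the cell membrane and tie the matrix outside to actin or keratin filaments inside. The pair of chains sets the ligand: collagens, laminins, proteins with an RGD motif such as fibronectin and vitronectin, or counter-receptors on other cells. Laminins are trimers of an α, a β and a γ chain, secreted into the basement membrane on which colon epithelium rests. Neither kind of chain works alone, since an integrin chain reaches the surface with a partner and a laminin β and γ chain leave the cell with an α chain.

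Libraries held 71970499 to 111948430 counts on named genes, and 15006 genes passed a filter on low counts and were tested. Tdo2 had 6 to 29 counts in every library and passed the test in none of the treated groups, so a fall of the target was not shown. Apc was counted in every library and had a log2 fold change of −0.57 ± 0.12 in untreated APC-deleted over APC-intact cells (SE, edgeR adjusted p = 0.00241), and counts per whole gene do not show which part was removed. The labels call the libraries biological triplicates and say nothing of separate cultures, and p-values here measure only how these samples spread, which may be technical. The file names put the libraries in 2 runs of 9, and on that reading the untreated groups and APC-intact 24 h are in 1 run and the other 3 groups in the other. APC-deleted 48 h replicate 2 and APC-intact 24 h replicate 1 each stood apart from the other libraries on a principal component of expression, and results that change without them are given with and without. On the component that set APC-deleted 48 h replicate 2 apart (−34.7), APC-intact 24 h replicate 2 lay next, at −22.5. It was not left out with these 2. Of 12 markers of colon epithelium, Cdh1, Krt8, Lgals4 and Cdh17 reached 1 CPM, counts scaled to library size, on average, and 8, among them Epcam, Krt18, Krt20 and Cdx2, lay under 0.1 CPM. Of 8 fibroblast markers, Col1a1, Col1a2, Col3a1, Dcn, Pdgfra and Pdgfrb exceeded 1 CPM, while Lum averaged 0.345 CPM and Thy1 0.000599 CPM.

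All 39 genes had at least 1 count. The filter passed 29 of them, 21 integrins and 8 laminins, and the other 10 had 2 to 40 counts summed over the 18 libraries. These 10 were Itga4, Itga9, Itgad, Itgam, Itgax, Itgb2l, Itgb6, Lama1, Lama2 and Lama4. A further 6 passed the filter but averaged under 1 CPM in every group: Itga2, Itga8, Itga11, Itgae, Itgal and Lamb3. The remaining 23 averaged at least 1 CPM in each of the 6 groups, and 0 genes crossed that level in some groups only. Lamb3 passed through the APC-intact groups, and Itga11 and Itga8 through the APC-deleted groups. They passed only through the line where they were high, so no test between the lines is given for them.

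Levels were compared between genes per length, as CPM per kilobase of the deposited exon length (RPKM). Itgb1, the β chain shared by the largest set of integrins, stood first, with group means from 354.9 to 388.8 RPKM. Itgb7, which in lymphocytes forms the receptor that homes them to the gut, was second with 164.1 to 315.7 RPKM. The laminin chains Lamc1 and Lamb1 followed with 78.0 to 109 RPKM and 76.6 to 93.4 RPKM. Among the other β chains, Itgb2, the β chain of leukocyte integrins, had 54.8 to 91.2 RPKM, and Itgb5, a vitronectin receptor chain, had 48.9 to 68.4 RPKM.

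The α chains with the highest levels were Itga5, the fibronectin receptor chain, with 55.5 to 64.2 RPKM, and the laminin receptor chains Itga6, with 42.9 to 53.2 RPKM, and Itga3, with 37.9 to 43.6 RPKM. Itgav, which pairs with 5 β chains and binds RGD proteins, lay at 16.0 to 19.4 RPKM. Itgbl1, a secreted protein with repeats like those of β integrins and no place in a receptor, lay at 28.3 to 46.8 RPKM. Lamb2 lay at 10.7 to 12.4 RPKM and Itgb3 at 5.56 to 11.7 RPKM. Below 2 RPKM, the means ran from 0.894 to 1.62 RPKM for Itga10, 0.91 to 1.48 for Itgb8, 0.765 to 1.14 for Itga7, 0.462 to 0.930 for Itga1, 0.410 to 0.700 for Itgb4 and 0.415 to 0.518 for Itga2b. The 5 laminin α chains were lower still. Lamc1 stood above Lamb1 in the APC-deleted groups and below it in treated APC-intact groups (87.2 and 84.2 RPKM of Lamc1, 89.4 and 87.6 RPKM of Lamb1 at 24 and 48 h), while Itgb2 and Itgb5 were close in untreated APC-intact cells at 64.3 and 63.3 RPKM.

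**Figure D1:**
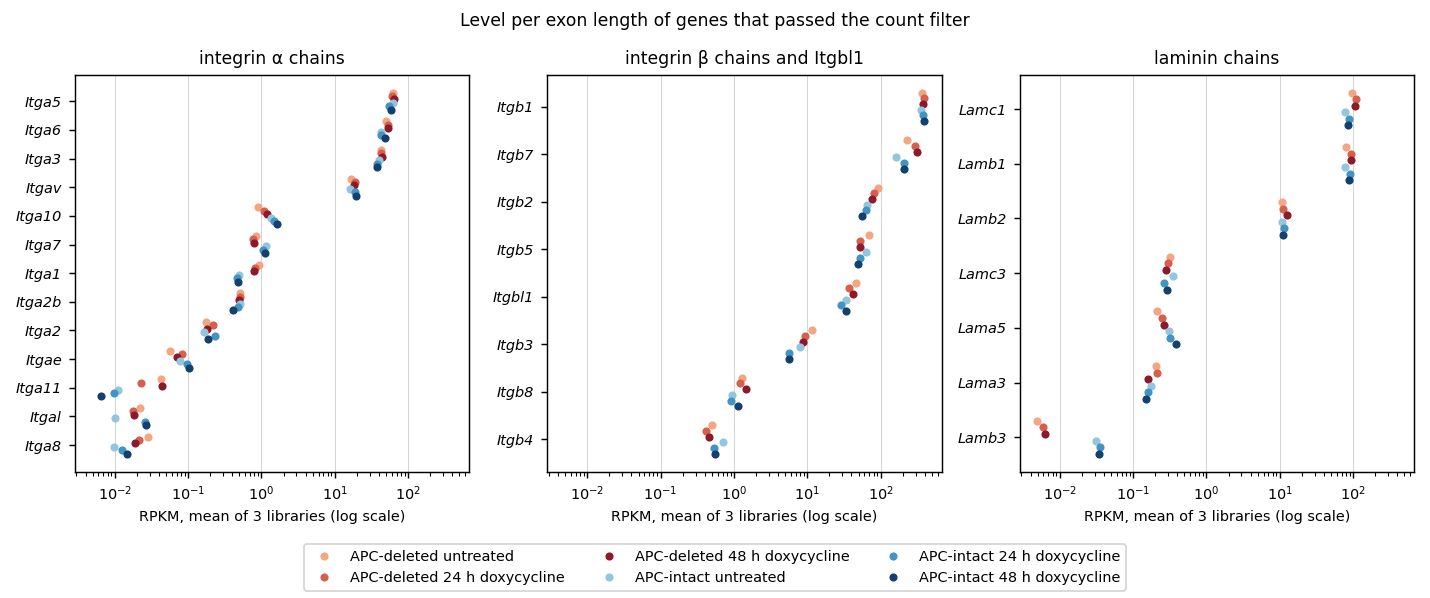
Mean RPKM of 3 libraries on a log axis for 28 genes that passed the count filter, in panels for integrin α chains, integrin β chains with Itgbl1, and laminin chains, with a coloured point for each of the 6 groups. Itgb1 and Itgb7 exceed 100 RPKM in every group, while the laminin α chains Lama3 and Lama5 stay between 0.148 and 0.385 RPKM.

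Of 24 known integrin pairs, 12 had both chains at 1 CPM or more in every group. Collagen receptors were represented by Itga1 and Itga10 with Itgb1. Laminin receptors were represented by Itga3, Itga6 and Itga7 with Itgb1, and by Itga6 with Itgb4, the pair of the epithelial hemidesmosome. Receptors for RGD proteins were represented by Itga5 with Itgb1, Itgav with Itgb1, Itgb3, Itgb5 and Itgb8, and Itga2b with Itgb3, the fibrinogen receptor of platelets. These same 12 pairs were complete in APC-deleted and APC-intact cells, with and without doxycycline. At 5 CPM, 8 pairs were complete in each group, and at 0.5 CPM 13 were, the extra pair being Itga2 with Itgb1. RNA levels do not show which pairs were present as protein.

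**Figure D2:**
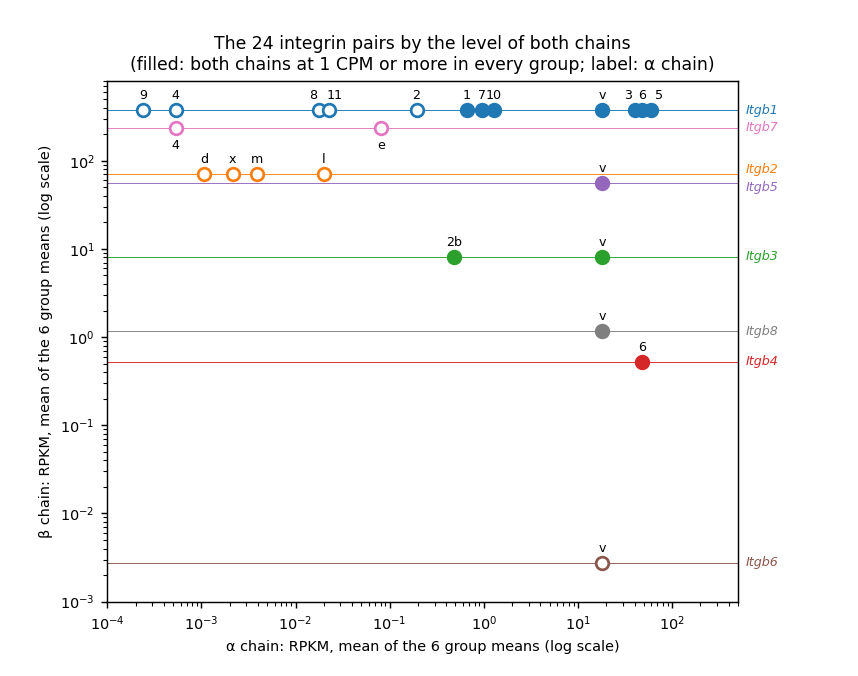
The 24 integrin pairs placed by the level of the α chain (horizontal) and the β chain (vertical), each in RPKM on a log axis as the mean of the 6 group means, with the α chain written beside the point and filled points where both chains reach 1 CPM in every group. Pairs of Itgb7 and Itgb2 lie at upper left as open points, with a high β chain and α chains under 0.2 RPKM.

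Itgb7 and Itgb2 had high RNA while their known α partners were near 0. Itgb7 pairs with Itga4 or with Itgae, which binds E-cadherin, and these 2 chains summed to 0.0562 to 0.105 RPKM over the groups. Itgb7 exceeded that sum 1594 to 6891 times in single libraries. The 4 α partners of Itgb2 (Itgal, Itgam, Itgax and Itgad) summed to 0.0200 to 0.0344 RPKM, and Itgb2 exceeded them 1167 to 5897 times. Of 11 leukocyte markers in the tables, Ptprc, Csf1r, Cd3e, Ms4a1 and Spi1 averaged under 0.1 CPM, while Cd68 and Cd14 exceeded 1 CPM. In GENCODE M21 no other gene overlaps Itgb7 or Itgb2. Only 24 of the 39 genes had the same place there as in the count tables, so the annotation counted may differ.

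Lamb1 and Lamc1 also had far more RNA than their α partners. The 5 α chains summed to 0.416 to 0.536 RPKM, and Lamb1 exceeded that sum 148.5 to 230.2 times and Lamc1 153.9 to 260.4 times in single libraries. Of 14 known trimers, 5 had every chain at 1 CPM or more, namely Lama3 or Lama5 with Lamb1 or Lamb2 and Lamc1, and Lama5 with Lamb2 and Lamc3. The α chains in them averaged 1.52 to 4.35 CPM, and at 5 CPM 0 trimers were complete. Lamb3 lay at 0.00498 to 0.0359 RPKM. For the Itgb1 receptors the chains were closer to balance: the α partners Itga1 to Itga11 and Itgav summed to 0.401 to 0.533 of Itgb1 per length in single libraries.

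APC-deleted cells had more Itgb3, Itgb7, Itgb2, Itgb8, Itga1 and Lamc1 RNA than APC-intact cells, and less Itga7 and Itga10, while Itgb1 did not pass the test. Without doxycycline 16 of the 29 tested genes passed edgeR's test at an adjusted p of 0.05, against 27.3% of all genes tested. Of these 10 were higher in APC-deleted cells, against 13.4% of all genes, and 6 were lower, against 13.8%. At 24 h 9 were higher and 5 lower, against 16% and 15.1% of all genes and 31.2% in either direction. At 48 h 10 were higher and 5 lower, against 17.8% and 16.8%, and 34.7% in either direction. These counts include genes that the filter admitted through 1 line, namely Lamb3 at each point, Itga11 untreated and at 48 h, and Itga8 untreated. The filter favoured the direction of those calls, so the counts are not read as an excess over the shares of all genes. The median log2 fold change of the 29, which takes in the same genes, was 0.07, 0.06 and 0.10 at the 3 points. Over all genes it was −0.0044, −0.0073 and −0.0005. Itga1, Itgb2, Itgb3, Itgb7, Itgb8, Itgbl1 and Lamc1 were higher in APC-deleted cells at all 3 points, and Itga7 and Itga10 were lower at all 3. The untreated and the 48 h comparison each lie within 1 run, and the 24 h comparison sets the runs against each other, so that line and run cannot be told apart there. In bulk samples fewer cells of a type and less RNA per cell cannot be told apart. Summed colon epithelium markers were 11.9 to 12.3, 9.66 to 11.1 and 10.8 to 12.4 CPM in APC-deleted libraries at 0, 24 and 48 h, against 7.30 to 8.07, 5.72 to 6.84 and 6.99 to 8.28 CPM in APC-intact libraries. Summed fibroblast markers were 4209 to 4666, 3488 to 3596 and 3426 to 3484 CPM in APC-deleted libraries, against 3527 to 3721, 2850 to 2957 and 2728 to 2762 CPM in APC-intact libraries. Both sums were higher in APC-deleted libraries at each point without overlap, and their part in the differences between lines was not tested.

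**Figure D3:**
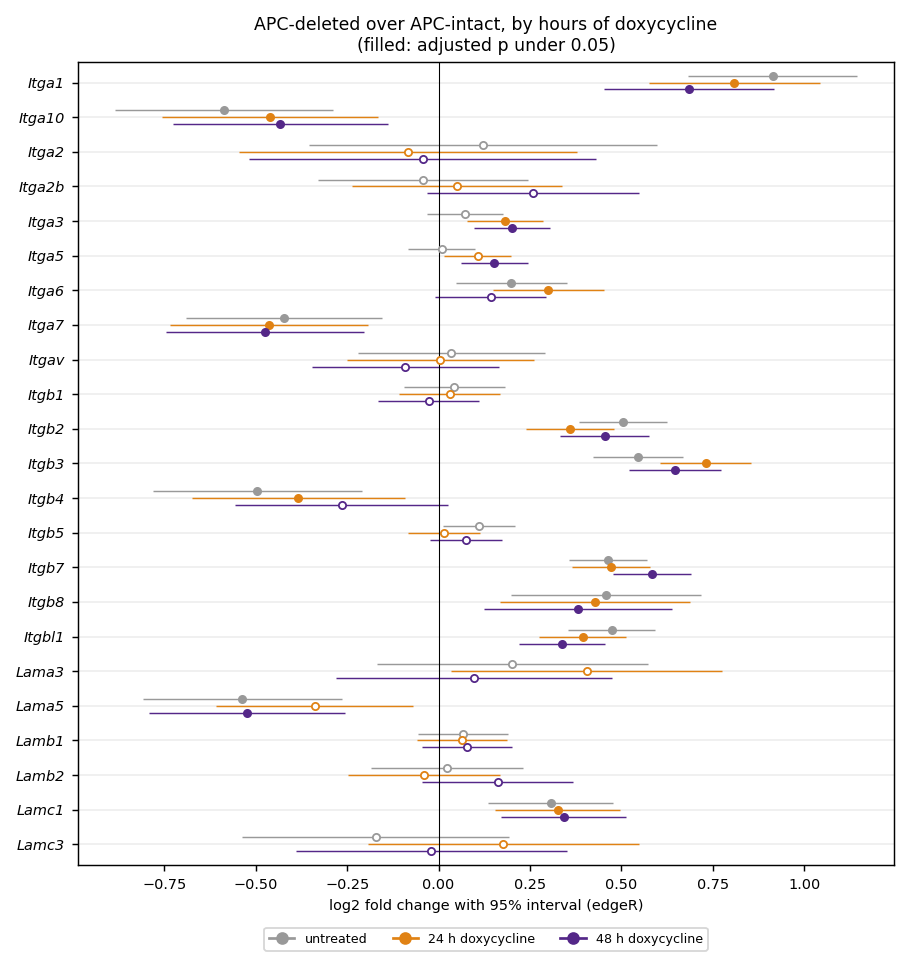
Log2 fold change of APC-deleted over APC-intact cells with its 95% interval from edgeR for 23 integrin and laminin genes, at 0, 24 and 48 h of doxycycline, with filled points for an adjusted p under 0.05. Itga11, Itga8, Itgal, Itgae and Lamb3 are left out for their low counts. Itga1 reaches 0.91 and Itga10 −0.59 without doxycycline, and every point of Itgb1 and Itgav has an interval across 0.

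Among the β chains, Itgb3 joins Itgav in a receptor for vitronectin, osteopontin and fibrinogen, and it is encoded on chromosome 11 from 104608000 to 104670476 on the plus strand of mm10. APC-deleted libraries had 68.1, 68.1 and 69.5 CPM of Itgb3 untreated, 55.6, 54.1 and 56.8 CPM at 24 h, and 50.7, 48.5 and 54.5 CPM at 48 h. APC-intact libraries had 51.0, 44.2 and 45.9 CPM untreated, 33.9, 31.1 and 35.3 CPM at 24 h, and 33.8, 31.7 and 32.7 CPM at 48 h. At each point every APC-deleted library lay above every APC-intact library. The log2 fold change was 0.54 ± 0.059 untreated (SE, n = 3 per group, adjusted p = 6.84e-07), 0.73 ± 0.060 at 24 h (adjusted p = 1.11e-08) and 0.65 ± 0.060 at 48 h (adjusted p = 6.21e-08). Itgb5, another partner of Itgav, did not pass the test at any point, with 0.11, 0.01 and 0.08. Its untreated difference passed without both libraries that stand apart (0.12, adjusted p = 0.0259) and in a fit of these 2 groups alone (0.11, adjusted p = 0.0252). The ratio of Itgb3 to Itgb5 per length was 0.154 to 0.183 in single APC-deleted libraries and 0.0978 to 0.132 in single APC-intact libraries. Summed markers of megakaryocytes and platelets, which also express Itgb3, ran in much the same order, at 6.50 to 7.33, 4.58 to 4.68 and 2.97 to 3.79 CPM in APC-deleted cells and 2.74 to 3.06, 1.60 to 2.25 and 1.75 to 1.94 CPM in APC-intact cells (untreated, 24 h and 48 h). Of these markers Ppbp and Gp1ba exceeded 1 CPM and Pf4, Gp9 and Gp6 lay under 0.1 CPM, and their part in the result was not tested.

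Itgb7, on chromosome 15 from 102215995 to 102231935 on the minus strand, was higher in APC-deleted cells as well. APC-deleted libraries had 619.6, 620.2 and 612 CPM untreated, 787, 783 and 810.3 CPM at 24 h, and 818, 916 and 849 CPM at 48 h. APC-intact libraries had 458, 438 and 447 CPM untreated, 554, 616 and 547 CPM at 24 h, and 583, 570.4 and 570.2 CPM at 48 h. Again no library of either line crossed into the other line at the same point, and the log2 fold change was 0.46 ± 0.051 (adjusted p = 7.81e-07), 0.47 ± 0.051 (adjusted p = 5.76e-07) and 0.58 ± 0.051 (adjusted p = 2.75e-08). Itgb2, on chromosome 10 from 77530252 to 77565708, averaged 276.8 ± 19.8 CPM in APC-deleted cells and 195 ± 2.06 CPM in APC-intact cells without doxycycline (SD, n = 3 each). Its log2 fold change was 0.50 ± 0.058 (adjusted p = 1.4e-06) untreated, 0.36 at 24 h and 0.45 at 48 h. Leukocyte markers overlapped between the lines, with sums of 33.7 to 37.6 CPM in APC-deleted and 32.9 to 36.0 CPM in APC-intact untreated libraries.

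Itgb8, which with Itgav activates latent TGF-β, was higher by 0.46 ± 0.12 untreated (adjusted p = 0.00918), 0.43 ± 0.12 at 24 h (adjusted p = 0.0124) and 0.38 ± 0.12 at 48 h (adjusted p = 0.021). Itgbl1 averaged 197 ± 6.72 CPM in APC-deleted cells and 142 ± 1.76 CPM in APC-intact cells untreated, and its log2 fold changes were 0.47, 0.39 and 0.34 (adjusted p = 2.43e-06, 2.17e-05 and 0.000107). Itgb4, the hemidesmosomal partner of Itga6, went the other way, with 3.46 ± 0.667 CPM in APC-deleted cells and 4.88 ± 0.598 CPM in APC-intact cells untreated. Its log2 fold change was −0.50 ± 0.14 untreated (adjusted p = 0.0105), −0.38 ± 0.14 at 24 h (adjusted p = 0.042) and −0.27 ± 0.14 at 48 h, which did not pass (adjusted p = 0.154). The Itgb4 call was lost untreated without APC-deleted replicate 3 (adjusted p = 0.0728) or APC-intact replicate 3 (0.0603), and at 24 h without any of the libraries compared other than APC-intact replicate 3 (0.053 to 0.146) or without both libraries that stand apart (−0.32, adjusted p = 0.116). The Itgb8 call was lost at 24 h without APC-deleted replicate 3 or APC-intact replicate 2 (0.057 and 0.058), and at 48 h without APC-deleted replicate 1 or 3 or APC-intact replicate 2 (0.0883, 0.0592 and 0.0848). Itgb1 had log2 fold changes of 0.04, 0.03 and −0.03 with an SE of 0.066, so that 95% intervals from −0.16 to 0.18 cover all 3 points.

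Among the α chains, Itga1, a receptor chain for basement membrane collagen, showed the largest difference of the genes at 1 CPM or more. APC-deleted libraries had 5.73, 5.52 and 5.37 CPM of Itga1 untreated, 4.61, 5.24 and 4.63 CPM at 24 h, and 4.56, 4.39 and 4.98 CPM at 48 h. APC-intact libraries had 2.74, 2.95 and 3.13 CPM untreated, 2.76, 2.27 and 3.21 CPM at 24 h, and 2.76, 3.02 and 2.88 CPM at 48 h. The lines did not overlap at any point, with log2 fold changes of 0.91 ± 0.11 (adjusted p = 3e-06), 0.81 ± 0.11 (adjusted p = 1.37e-05) and 0.68 ± 0.11 (adjusted p = 7.96e-05). Itga10, the other collagen receptor chain at this level, was lower in APC-deleted cells: 4.61 ± 0.533, 5.52 ± 0.689 and 6.22 ± 1.53 CPM at 0, 24 and 48 h, against 6.93 ± 0.360, 7.59 ± 0.924 and 8.38 ± 0.551 CPM in APC-intact cells (SD, n = 3 each). Its log2 fold changes were −0.59, −0.46 and −0.43 (adjusted p = 0.0042, 0.017 and 0.0216). At 48 h APC-deleted replicate 2, with 7.79 CPM, overlapped the APC-intact libraries. Itga11, a collagen receptor chain of fibroblasts that the filter admitted through APC-deleted cells, had 62, 36 and 59 counts in APC-deleted groups and 16, 13 and 9 in APC-intact groups at 0, 24 and 48 h.

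Of the laminin receptor α chains, Itga6 was higher by 0.20 ± 0.073 untreated (adjusted p = 0.0478) and 0.30 ± 0.073 at 24 h (adjusted p = 0.00354). At 48 h its difference of 0.14 did not pass (adjusted p = 0.14), but it was 0.24 without APC-deleted 48 h replicate 2 (adjusted p = 0.00267) and 0.23 without both libraries that stand apart (adjusted p = 0.00461). Itga3 was higher by 0.18 ± 0.050 at 24 h (adjusted p = 0.00825) and 0.20 ± 0.050 at 48 h (adjusted p = 0.00361), and 0.07 untreated (adjusted p = 0.313). Itga7, a laminin receptor chain of muscle, was lower, at −0.42 ± 0.13 (adjusted p = 0.0186), −0.46 ± 0.13 (adjusted p = 0.00957) and −0.47 ± 0.13 (adjusted p = 0.00733). The fibronectin receptor chain Itga5 passed at 48 h only, at 0.15 ± 0.044 (adjusted p = 0.0103), and Itgav at no point, with 0.03, 0.00 and −0.09 (SE 0.12). Itga8, a nephronectin receptor chain, had 58 counts in APC-deleted and 20 in APC-intact untreated cells. At 24 and 48 h its libraries overlapped between the lines. The collagen receptor chain Itga2, Itga2b, and the leukocyte chains Itgae and Itgal passed at no point, with untreated values of 0.12 ± 0.23, −0.04 ± 0.14, −0.48 ± 0.42 and 1.11 ± 0.50. In GENCODE M21 Itgav shares up to 634 exon bases with a tested gene on the opposite strand and Itga7 shares 9. With genes that were not tested, Itga1 shares up to 451 and Itga10 up to 243 on the same strand. On the opposite strand Itgb4 shares up to 437 with such a gene, Lamc3 382, Itga8 372 and Lama3 197. The annotation used for counting and the use of strand are not given in the sources used here, so the counts of these genes are uncertain to that extent.

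Several of these α chain calls were lost when 1 library was left out. The Itga6 call untreated was lost without any 1 of the 6 libraries compared (adjusted p = 0.0603 to 0.127), and that of Itga3 at 24 h without APC-intact replicate 3 (0.0511). Untreated, Itga7 lost its call without APC-deleted replicate 3 (0.115) or APC-intact replicate 2 or 3 (0.0851 and 0.0634), and at 48 h without APC-deleted replicate 1 (0.0501). For Itga10 the call was lost at 24 h without APC-deleted replicate 1 or 3 (0.0796 and 0.0532) or APC-intact replicate 3 (0.0769). At 48 h it was lost without APC-deleted replicate 1 or 3 (0.1305 and 0.0575) or APC-intact replicate 1 or 3 (0.0789 and 0.0595).

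Laminin chains differed in both directions, with Lamc1 higher at all 3 points and Lama5 lower untreated and at 48 h, as given below. Lamb3, a laminin β chain of epithelia, is no part of that statement, since the filter admitted it through APC-intact cells. It had 1, 2 and 3 counts in untreated APC-deleted libraries and 5, 10 and 24 in untreated APC-intact libraries. Over all 3 points Lamb3 had 1 to 4 counts per APC-deleted library and 4 to 24 per APC-intact library.

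Lamc1, the γ chain of most laminins, averaged 795 ± 31.9 CPM in APC-deleted cells and 643 ± 83.2 CPM in APC-intact cells untreated (SD, n = 3 each). It was higher in APC-deleted cells by 0.31 ± 0.081 (adjusted p = 0.00805), 0.33 ± 0.081 at 24 h (adjusted p = 0.00456) and 0.34 ± 0.081 at 48 h (adjusted p = 0.0027). The untreated call was lost without APC-intact replicate 2, the lowest library at 550 CPM (adjusted p = 0.0512). Lamb1, which sits beside Lamc1 in these trimers, differed by 0.07, 0.06 and 0.08 with an SE of 0.059 and passed at no point. Lama5, the α chain of most epithelial basement membranes, was lower, at −0.54 ± 0.13 untreated (adjusted p = 0.00412) and −0.52 ± 0.13 at 48 h (adjusted p = 0.00337). At 24 h it was −0.34 ± 0.13 (adjusted p = 0.0524). There it passed without APC-intact 24 h replicate 2 (adjusted p = 0.0131) and by DESeq2 (−0.34, adjusted p = 0.0323). A fit with line, time and run as additive terms gave 1 line difference of Lama5 for all times together, −0.53 (adjusted p = 5.95e-05). Lama3 at 0.20 ± 0.18, 0.40 ± 0.18 and 0.10 ± 0.18, Lamb2 at 0.02, −0.04 and 0.16 (SE 0.099) and Lamc3 at −0.17, 0.18 and −0.02 (SE 0.18) passed at no point. Lama3 passed at 24 h without APC-deleted replicate 1 (0.52, adjusted p = 0.0493) or without both libraries that stand apart (0.50, adjusted p = 0.0376), and Lamb2 at 48 h without APC-deleted replicate 1 (0.27, adjusted p = 0.043), where replicate 2 had 85.8 CPM and replicate 3 had 63.0 CPM.

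Under doxycycline 4 chains moved at both times in each line: Itgb7 and Lamb1 rose, and Itgb3 and Itgb5 fell. In APC-deleted cells at 24 h 2 of the 29 genes rose and 3 fell, against 2.08% and 3.77% of all genes and 5.85% in either direction. At 48 h in these cells 2 rose and 3 fell, against 4.52% and 6.49%, and 11% in either direction. In APC-intact cells at 24 h 2 rose and 5 fell, against 1.39% and 4.25%, and 5.64% in either direction. At 48 h in these cells 2 rose and 4 fell, against 3.81% and 7.54%, and 11.3% in either direction. Without APC-intact untreated replicate 1 the 24 h count in APC-intact cells was 4 in place of 7. Without APC-deleted 48 h replicate 2 the 48 h count in APC-deleted cells was 8 in place of 5, since Itga6, Itgav and Itgb1 then passed as higher (0.19, 0.29 and 0.15, adjusted p = 0.0262, 0.0371 and 0.0426). Without both libraries that stand apart, Itga6 and Itgb1 passed there (0.18 and 0.14, adjusted p = 0.0394 and 0.0333). Medians of the 29 lay between −0.03 and 0.05 over the 4 comparisons, beside −0.0043 to 0.0005 over all genes. Both times in a line are set against the same untreated libraries. The 24 h comparison in APC-intact cells lies within 1 run, while the other 3 set the runs against each other, so that run and treatment cannot be told apart there. In a fit with line, time and run as additive terms, which gives 1 change per time for both lines together, the changes at 24 and 48 h were −0.47 and −0.61 for Itgb3 (adjusted p = 3.83e-05 and 0.000413), −0.29 and −0.31 for Itgb5 (0.000276 and 0.0124), 0.38 and 0.47 for Itgb7 (6.1e-05 and 0.00117) and 0.23 and 0.21 for Lamb1 (0.0139 and 0.218).

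**Figure D4:**
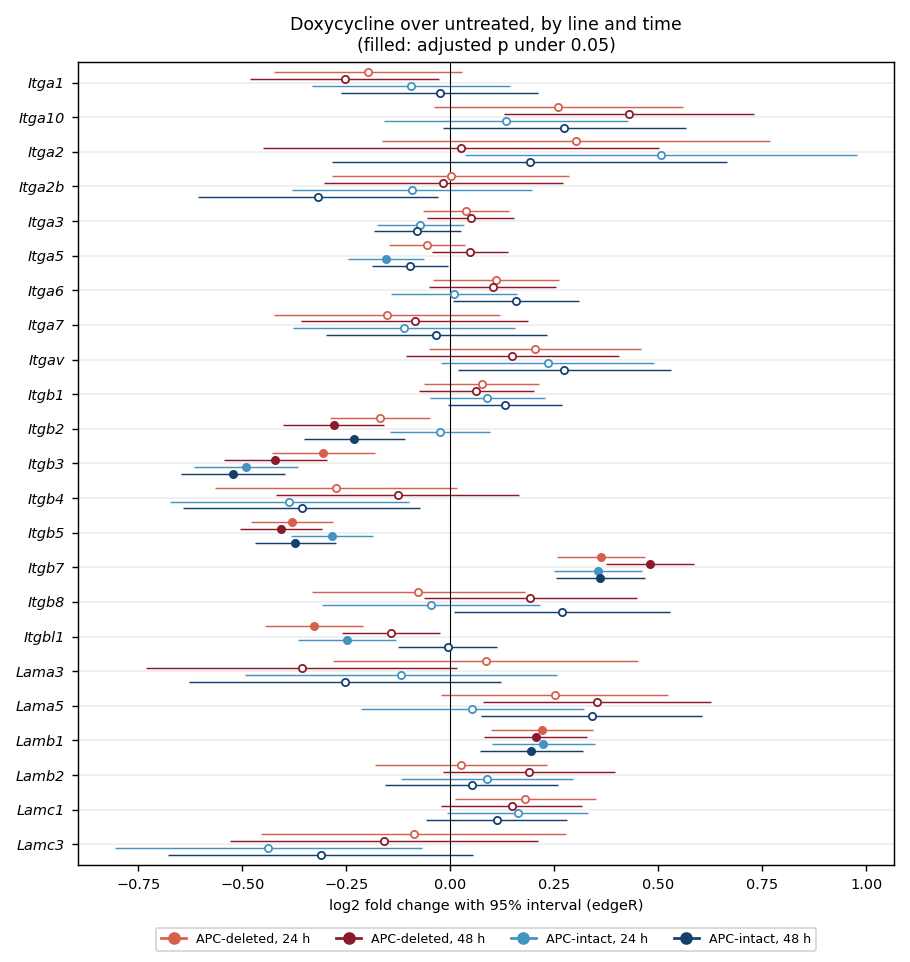
Log2 fold change of doxycycline over untreated cells with its 95% interval from edgeR for 23 integrin and laminin genes, in APC-deleted and APC-intact cells at 24 and 48 h, with filled points for an adjusted p under 0.05. All points of Itgb3 and Itgb5 lie between −0.52 and −0.28 and all points of Itgb7 between 0.35 and 0.48.

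Itgb3 fell in APC-deleted cells, with a log2 fold change of −0.31 ± 0.059 at 24 h (adjusted p = 0.00349) and −0.42 ± 0.059 at 48 h (adjusted p = 0.000122). In APC-intact cells it fell by 0.49 ± 0.060 (adjusted p = 5.87e-05) and by 0.52 ± 0.060 (adjusted p = 7.23e-06). The libraries listed above show that each treated library lay below each untreated library of its line, and that APC-deleted cells at 48 h (48.5 to 54.5 CPM) overlapped untreated APC-intact cells (44.2 to 51.0 CPM). Itgb5, on chromosome 16 from 33829665 to 33949153 on the plus strand, had 229, 224 and 233 CPM in untreated APC-deleted libraries, 173, 173 and 181 CPM at 24 h, and 167, 179 and 171 CPM at 48 h. APC-intact libraries had 219.7, 212 and 204 CPM of Itgb5 untreated, 168, 181 and 172 CPM at 24 h, and 161, 169 and 160.1 CPM at 48 h. The highest treated library, at 181 CPM, was below the lowest untreated one. Itgb5 fell by 0.38 ± 0.047 (adjusted p = 5.42e-05) and 0.41 ± 0.047 (adjusted p = 1.52e-05) at 24 and 48 h in APC-deleted cells. In APC-intact cells it fell by 0.28 ± 0.047 (adjusted p = 0.000863) and 0.37 ± 0.047 (adjusted p = 2.25e-05). Their α partner Itgav did not pass, with 0.20 and 0.15 at 24 and 48 h in the APC-deleted line and 0.23 and 0.27 in the APC-intact line (SE 0.12).

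Itgb7 rose by 0.36 ± 0.051 at 24 h (adjusted p = 0.000219) and 0.48 ± 0.051 at 48 h (adjusted p = 6e-06) in APC-deleted cells. The rise in APC-intact cells was 0.35 ± 0.051 (adjusted p = 0.000252) and 0.36 ± 0.051 (adjusted p = 8.96e-05), and no treated library overlapped the untreated ones of its line. Lamb1, on chromosome 12 from 31265234 to 31329644 on the plus strand, had 792, 802 and 785 CPM in untreated APC-deleted libraries, 882, 925 and 963 CPM at 24 h, and 901, 877 and 964 CPM at 48 h. In APC-intact libraries it had 781, 678 and 812 CPM untreated, 857, 886 and 907 CPM at 24 h, and 893, 841 and 865 CPM at 48 h. Treated libraries again lay above the untreated ones, by 0.22 ± 0.059 and 0.20 ± 0.059 in APC-deleted cells (adjusted p = 0.0316 and 0.0305) and by 0.22 ± 0.059 and 0.19 ± 0.059 in APC-intact cells (adjusted p = 0.0291 and 0.0386). These Lamb1 calls were close to the threshold. In APC-deleted cells they were lost without any untreated library, at 24 h also without replicate 2 or 3 (adjusted p = 0.0852 to 0.1585) and at 48 h also without replicate 1 or 3 (0.0596 to 0.141). In APC-intact cells they were lost at 24 h without untreated replicate 1 or 2 or 24 h replicate 3 (0.0535, 0.177 and 0.0543), and at 48 h without untreated replicate 1 or 2 (0.072 and 0.243) or any 48 h library (0.0549 to 0.141). Lamc1, its partner, did not pass, with 0.18 and 0.15 in the APC-deleted line and 0.16 and 0.11 in the APC-intact line.

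**Figure D5:**
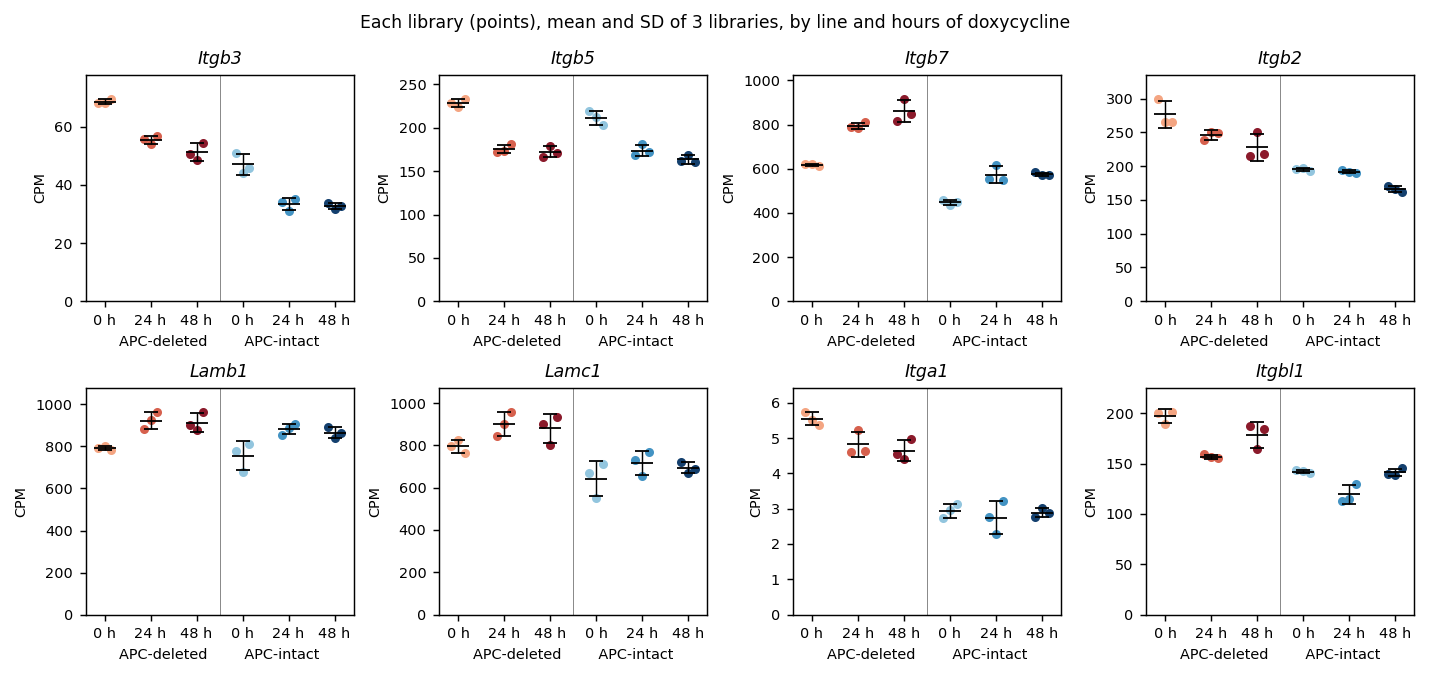
CPM of 8 integrin and laminin genes in each of the 18 libraries, with the mean and SD of 3 libraries, for APC-deleted cells on the left and APC-intact cells on the right of each panel at 0, 24 and 48 h of doxycycline. Itgb3 and Itgb5 are lower and Itgb7 higher in every treated library than in the untreated libraries of the same line, and Itga1 is higher in every APC-deleted library than in any APC-intact library.

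Promoters are shown for the chains that changed under the drug in both lines, as the 250 bases before the start of the gene from RefSeq on GRCm38.p6, read 5′ to 3′ on the strand of the gene. RefSeq's start of Lamb1 differs from the one in the count tables, which lies inside this window. Capitals mark matches to a GC box (GGGCGG on either strand), and Itgb3 had no entry in the table of promoters.
Itgb5, chr16:33829415-33829664, plus strand: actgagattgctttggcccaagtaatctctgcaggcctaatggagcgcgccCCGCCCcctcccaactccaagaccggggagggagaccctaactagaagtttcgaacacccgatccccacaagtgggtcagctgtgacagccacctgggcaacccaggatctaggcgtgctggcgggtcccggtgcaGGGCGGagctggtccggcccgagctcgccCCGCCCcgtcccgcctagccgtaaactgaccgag
Itgb7, chr15:102231936-102232185, minus strand: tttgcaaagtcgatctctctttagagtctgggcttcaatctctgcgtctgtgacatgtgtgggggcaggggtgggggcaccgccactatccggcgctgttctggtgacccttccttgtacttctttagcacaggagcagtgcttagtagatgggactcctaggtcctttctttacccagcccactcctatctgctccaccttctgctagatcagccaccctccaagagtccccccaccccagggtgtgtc
Lamb1, chr12:31265043-31265292, plus strand: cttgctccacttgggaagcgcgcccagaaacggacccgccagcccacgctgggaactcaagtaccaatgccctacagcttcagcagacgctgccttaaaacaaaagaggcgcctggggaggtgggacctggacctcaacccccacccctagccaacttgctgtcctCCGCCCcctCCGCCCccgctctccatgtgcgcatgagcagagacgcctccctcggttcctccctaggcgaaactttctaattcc
Itgb5 held 3 GC boxes, Lamb1 held 2 and Itgb7 held 0, and 32.7% of 32851 promoters in the table held at least 1 in the same window. The letters of an AP-1 site (TGANTCA), a TCF/LEF site (CTTTGAT) and a TATA box (TATAAA), searched on both strands, were in none of these 3 windows, and were in 6.75%, 3.21% and 12.4% of all promoters. G and C made up 65.2% of the window of Itgb5, 56% of that of Itgb7 and 62% of that of Lamb1.

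Other genes changed in part of the comparisons. Itgb2 was lower at 48 h, by −0.28 ± 0.058 in APC-deleted cells (adjusted p = 0.00362) and −0.23 ± 0.058 in APC-intact cells (adjusted p = 0.014), while at 24 h it had −0.17 (adjusted p = 0.0923) and −0.03 (adjusted p = 0.859). The 24 h value in APC-deleted cells passed without both libraries that stand apart (−0.17, adjusted p = 0.0174). In fits of only the groups compared it passed too (−0.17, adjusted p = 0.0243). The APC-deleted 48 h call was lost in such a fit (−0.28, adjusted p = 0.0964). In APC-intact cells Itgb2 averaged 166 ± 4.46 CPM at 48 h and 195 ± 2.06 CPM untreated, without overlap. The APC-intact 48 h call was lost without untreated replicate 1 or 2 or 48 h replicate 2 or 3 (adjusted p = 0.0567, 0.0526, 0.0517 and 0.0815). With run as a term the 48 h change of both lines together was −0.14 (adjusted p = 0.452). Leukocyte markers were lower at 48 h as well. In APC-deleted cells they summed to 33.7 to 37.6 CPM untreated, 28.9 to 29.8 CPM at 24 h and 25.2 to 30.1 CPM at 48 h. In APC-intact cells the sums were 32.9 to 36.0, 28.1 to 32.4 and 27.0 to 27.7 CPM. The sums were already lower at 24 h, a time at which Itgb2 passed in neither line with all libraries. Cd68 and Cd14 were the highest of these markers, averaging 14.6 and 14.8 CPM. The part of the markers in the result was not tested. Itgbl1 fell at 24 h, with −0.33 ± 0.056 in APC-deleted cells (adjusted p = 0.00138) and −0.25 ± 0.057 in APC-intact cells (adjusted p = 0.0115), and at 48 h it had −0.14 (adjusted p = 0.113) and −0.01 (adjusted p = 0.954). The APC-intact call of Itgbl1 was lost without untreated replicate 1 or 24 h replicate 1 (adjusted p = 0.0696 and 0.0812), and the 48 h value in APC-deleted cells passed without 48 h replicate 1 (−0.19, adjusted p = 0.0447).

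Itga5 passed at 24 h in APC-intact cells at −0.15 ± 0.044 (adjusted p = 0.0436), and that call was lost without untreated replicate 1 or 3 (0.261 and 0.121) or any 24 h library (0.0626 to 0.175), and without both libraries that stand apart (−0.14, adjusted p = 0.0656). In total 21 of the 29 tested genes passed in none of the 4 comparisons with untreated cells, among them Itgb1 and the α chains Itga3, Itga6 and Itgav. In APC-intact cells at 48 h, Itgb1, Itga6 and Itgav did pass as higher without both libraries that stand apart (0.13, 0.16 and 0.27, adjusted p = 0.0247, 0.0418 and 0.0456) and in a fit of APC-intact 48 h and untreated libraries alone (adjusted p = 0.00621, 0.00286 and 0.00724). Lama5 had 0.35 ± 0.13 at 48 h in APC-deleted cells and 0.34 ± 0.13 in APC-intact cells and missed the threshold in both (adjusted p = 0.0913 and 0.0894). In APC-intact cells Lama5 passed in a fit of the 48 h and untreated libraries alone (0.34, adjusted p = 0.0379). There it also passed without untreated replicate 3 (0.45, adjusted p = 0.0439). Itga10 in APC-deleted cells at 48 h, with 0.43 ± 0.14, missed the threshold (adjusted p = 0.0605) and passed by DESeq2 (adjusted p = 0.0268) or without APC-deleted 48 h replicate 1 (0.58, adjusted p = 0.00805).

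The change at 48 h was compared between the lines directly, and the run cancels in that test. By edgeR 0 of the 29 genes differed in either direction, against 0.0267% of all genes (0.02% higher and 0.00666% lower), with 3 at an unadjusted p under 0.05, and DESeq2 called 1. The differences for the chains that changed in both lines were 0.10 ± 0.084 for Itgb3, −0.03 ± 0.067 for Itgb5, 0.12 ± 0.072 for Itgb7 and 0.01 ± 0.083 for Lamb1. Between 48 h and 24 h in APC-deleted cells, which are in 1 run, 0 of the 29 passed by edgeR or DESeq2, against 0.52% of all genes (0.0733% higher and 0.446% lower), with 5 at an unadjusted p under 0.05. Itgbl1 had the smallest adjusted p there, at 0.19 ± 0.056 (adjusted p = 0.223), and passed without APC-deleted 48 h replicate 2 (0.24, adjusted p = 0.0234) or without both libraries that stand apart (0.23, adjusted p = 0.0194).

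Genes around these receptors were read in 4 lists of proteins known to work with them. Among 29 tested adaptors and signalling partners of integrin tails, 8 were higher and 6 lower in untreated APC-deleted cells, against 13.4% and 13.8% of all genes tested. Parvb, a parvin of the adhesion complex, had 0.32 ± 0.045 (adjusted p = 1.67e-05), Dab2, an adaptor that takes integrins into endocytosis, 0.41 ± 0.058 (adjusted p = 1.87e-05), and Flna, the actin crosslinker filamin A, −0.37 ± 0.078 (adjusted p = 0.00143). At 48 h of doxycycline 1 adaptor rose in each line, the kinase Src, by 0.41 ± 0.050 in APC-deleted cells (adjusted p = 3.02e-05) and 0.20 ± 0.050 in APC-intact cells (adjusted p = 0.0163). Of the adaptors 4 fell in the APC-deleted line and 3 in the APC-intact line, where 6.49% and 7.54% of all genes fell and 4.52% and 3.81% rose. Among those that fell was Tgfb1i1, the LIM protein Hic-5, at −0.43 ± 0.080 and −0.45 ± 0.080 (adjusted p = 0.00155 and 0.00111).

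Of 13 tested basement membrane proteins that bind laminin or lie beside it, 4 were higher and 3 lower in untreated APC-deleted cells, again against 13.4% and 13.8% of all genes. Nid2, a nidogen that links laminin to collagen IV, was higher by 1.19 ± 0.092 (adjusted p = 5.57e-09), and Col7a1, the anchoring fibril collagen, was lower, at −1.29 ± 0.12 (adjusted p = 1.59e-07). Of 10 tested laminin receptors other than integrins, 2 were higher and 1 was lower against the same shares, among them the syndecan Sdc1 at 0.23 ± 0.052 (adjusted p = 0.0022) and the sarcoglycan Sgcd at 0.44 ± 0.093 (adjusted p = 0.00127). Under 48 h of doxycycline the basement membrane list had 1 lower gene in the APC-deleted line and 3 in the APC-intact line, including Sparc at −0.18 ± 0.047 and −0.35 ± 0.047 (adjusted p = 0.0171 and 4.07e-05), and 0 higher in either, against 6.49% and 7.54% of all genes lower and 4.52% and 3.81% higher.

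The list of other integrin ligands had 26 tested genes, of which 6 were higher and 3 lower in untreated APC-deleted cells, against 13.4% and 13.8% of all genes. Npnt, nephronectin and a ligand of Itga8 with Itgb1, was higher by 1.81 ± 0.10 (adjusted p = 4.73e-11), Edil3, an RGD protein, by 1.39 ± 0.11 (adjusted p = 1.76e-08) and Col1a1 by 0.91 ± 0.057 (adjusted p = 2.55e-10). At 24 h of doxycycline 1 rose and 8 fell in APC-deleted cells and 0 rose and 7 fell in APC-intact cells. Of all genes 2.08% rose and 3.77% fell in the APC-deleted line at 24 h, and 1.39% rose and 4.25% fell in the APC-intact line, where the comparison lies within 1 run and Thbs1 and Col6a2 had −0.56 ± 0.073 and −0.43 ± 0.062 (adjusted p = 0.000103 and 0.000264). At 48 h of doxycycline 0 rose and 8 fell in APC-deleted cells and 2 rose and 8 fell in APC-intact cells, against 4.52% and 6.49% of all genes in the APC-deleted line and 3.81% and 7.54% in the APC-intact line. Col6a1 fell by 0.64 ± 0.069 and 0.60 ± 0.069 (adjusted p = 7.04e-06 and 7.23e-06), Col6a2 by 0.55 ± 0.062 and 0.71 ± 0.062 (adjusted p = 1.39e-05 and 2.34e-07), and Thbs1, the matricellular protein thrombospondin, by 0.44 ± 0.073 and 0.45 ± 0.073 (adjusted p = 0.000573 and 0.000394). The median of the 26 was −0.12 in the APC-deleted line and −0.21 in the APC-intact line, beside −0.0011 and 0.0005 over all genes. Summed fibroblast markers, of which Col1a1 and Col1a2 are also on the ligand list, were 3426 to 3484 CPM at 48 h and 4209 to 4666 CPM untreated in APC-deleted cells, and 2728 to 2762 CPM and 3527 to 3721 CPM in APC-intact cells, and their part in these changes was not tested.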

How the data were processed

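Gene counts of 18 libraries were deposited by the authors, made with STAR and HTSeq on mm10 per the submitters' processing notes, and their versions, the annotation and the use of strand are not given in the sources used here. The deposited exon length of each gene was used for levels per length. Entries that name no gene (22.9 to 25.5% of each table) were left out. The counts were fitted with edgeR 4.0.16 (R 4.3.3) by its quasi-likelihood test after TMM scaling and filterByExpr, all 18 libraries in 1 fit with a mean for each of 6 groups. P-values were adjusted by Benjamini-Hochberg over 15006 genes, with calls at 0.05, and fold changes are log2. CPM used TMM library sizes. Standard errors are Wald errors scaled by the quasi-likelihood variance, and DESeq2 1.42.0 was an alternative. The script was tested on simulated data. Counting error is small at these depths except for genes with few counts, and intervals cover counting error and the spread between libraries of a group. Same-numbered replicates of the groups compared correlated by −0.088 to 0.116, so numbers were not taken as pairs. Those of APC-deleted 48 h and APC-intact 24 h, which are not compared, had 0.103, 0.153 and 0.237. The genes, pairs and lists were chosen with earlier results of these data known. Some of these genes are counted but not reported here by name. The text names the other integrin and laminin genes, and from each list only genes among the 4 with the smallest adjusted p under 0.05 in a comparison.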

Additional observations from a re-analysis of the deposited data

How the results depend on the processing

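Of 63 calls of the integrin and laminin genes reported here in 9 comparisons, 40 held under every alternative run for their comparison. The 63 include calls between the lines of Lamb3, Itga11 and Itga8, which the filter admitted through 1 line. The alternatives were DESeq2's size factors, no filter, a replicate block, fitting only the groups compared, additive line, time and run (run for 4 comparisons, the lines at 24 h, APC-intact 48 h, and APC-deleted 24 h and 48 h), DESeq2, each library left out, and 2 libraries that stand apart left out together (chosen after seeing the data). With only the groups compared, calls over all genes and over integrins and laminins were 258 and 4 for APC-intact 24 h, 4367 and 12 for APC-intact 48 h, 2473 and 9 for APC-deleted 24 h and 433 and 3 for APC-deleted 48 h, against 846 and 7, 1703 and 6, 878 and 5, and 1653 and 5. They were 22 genes for 48 h against 24 h and 0 for the difference between lines, against 78 and 4. The additive fit called 347 genes and 3 integrins or laminins at 48 h. Without both libraries that stand apart the calls were 2984 (APC-intact 48 h), 1564 (APC-deleted 24 h), 3009 (APC-deleted 48 h), 221 genes and 1 integrin or laminin (48 h against 24 h) and 2 genes (difference). DESeq2 called 1388 genes for APC-deleted 24 h, 187 for 48 h against 24 h, and 58 genes and 1 integrin or laminin for the difference, which without a filter had 14 genes. At 5 CPM 0 laminin trimers were complete in all 6 groups. The cause of these shifts was not tested.

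Leaving out 1 library gave 364 to 1259 genes and 4 to 6 integrins or laminins for APC-intact 24 h, 822 to 1409 and 4 to 7 for APC-intact 48 h, 428 to 533 and 4 to 5 for APC-deleted 24 h, 882 to 2816 and 4 to 8 for APC-deleted 48 h, 47 to 193 and 0 to 1 for 48 h against 24 h, and 0 to 3 and 0 for the difference. Between lines it gave 3101 to 3579 and 11 to 15 untreated, 3608 to 4631 and 11 to 13 at 24 h, and 4231 to 5219 and 13 to 16 at 48 h. With only the groups compared, Itga3, Itga5 and Itga10 at 48 h, Itgb8 at 24 h and Lamc1 untreated lost their calls between lines (adjusted p = 0.0583, 0.0604, 0.082, 0.0528 and 0.0628). Under the replicate block the untreated lines had 4261 called genes against 4090, APC-intact 48 h 2173 and APC-deleted 48 h 1801, and 1 call of these genes was gained, Lama5 between lines at 24 h (−0.33, adjusted p = 0.0404). Other size factors shifted the median of all genes by at most 0.008. Genes with under 1 CPM are limited by counting error.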
